A study of Mus musculus with 6 samples.

Results

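Mitochondrial ribosomal proteins were taken as all probe sets whose annotated gene symbol starts with Mrpl (large subunit) or Mrps (small subunit) and a number, with pseudogenes left out. On this array each transcript region is read by a set of short probes, and many genes have more than 1 such probe set. The rule gave 156 probe sets for 76 genes, 47 Mrpl and 29 Mrps, of 45037 probe sets and 18193 named genes once the array's controls were left out. A further 4 probe sets name such a gene together with another gene (Mrpl30, Mrpl53 or Mrps34 with a neighbour or look-alike) and were not counted as members. The genes were measured in whole testes of 3 Alkbh1 knockout mice (KO, Alkbh1-/-) and 3 wild-type mice (WT), all 12 weeks old, with 1 Affymetrix array per mouse. The strain is spelled C57/BL6 in the source label and C53/BL6 in the genotype field, for both groups. The sources used here give neither the deleted part of Alkbh1 nor whether KO and WT mice were littermates. Values are log2 expression as deposited, and differences are KO minus WT on that scale.

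The mitochondrial ribosome translates the few messenger RNAs of the mitochondrial genome, which encode core subunits of the respiratory chain and of the ATP synthase. Its RNA is made inside the organelle, while every one of its proteins is encoded in the nucleus, made in the cytosol and imported. The small subunit reads the messenger RNA and the large subunit joins the amino acids and releases the growing chain through an exit tunnel towards the inner membrane. Some of its proteins have counterparts in bacterial ribosomes and others exist only in mitochondria. ALKBH1, a dioxygenase of the AlkB family, has been found in human cells to act on the anticodon of the mitochondrial methionine tRNA, which is read by this ribosome. The comparison asks whether the transcripts of its proteins differ in testes that lack Alkbh1.

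Alkbh1 itself fell. At its brighter probe set it read 5.76, 5.30 and 5.20 in KO, against 8.43, 8.65 and 8.72 in WT, a difference of -3.18 ± 0.15 (SE, limma adjusted p = 0.000582), and its other probe set differed by -1.02 ± 0.12 and missed the threshold (limma adjusted p = 0.0697). The tissue matched its label. Genes of spermatids such as Prm1 (protamine; mean 14.99 in KO and 14.97 in WT) and of spermatocytes such as Sycp3 (synaptonemal complex; 12.27 and 12.27) read high, Sertoli (Cldn11) and Leydig cell genes (Cyp17a1) read 10.48 and 12.83 in KO, against 10.48 and 12.64 in WT, and 4 of 5 genes of other tissues were under the level filter, Adipoq of fat tissue (8.53 in KO and 8.38 in WT) being the exception. No marker gene of these lists passed, and the 6 Sertoli genes, 2 higher and 4 lower, had the median farthest from 0 among the testis cell types (-0.086). The 4 measured Leydig genes, 2 higher and 2 lower, had the widest range of differences among them, from -0.33 (Star) to 0.19 (Cyp17a1). All 7 spermatid genes were higher in KO, by up to 0.06 (median 0.017). The 5 spermatocyte genes ran from 0.00 (Sycp3) to 0.08 (Hspa2), with a median of 0.037. Of 5 spermatogonia genes 2 were higher and 3 lower, and all 3 measured macrophage genes were higher (median 0.015). In whole testis, fewer cells of a type and less RNA per cell cannot be told apart. WT replicates 1 and 2 stood apart from the other arrays, at opposite ends of the first principal component (-24.36 and 21.03, 40.8% of the variance, with the other 4 arrays between -6.85 and 6.87).

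All 76 genes had at least 1 probe set above the level filter, which kept the upper 60% of probe sets by mean log2 value over the 6 arrays. Of the 156 probe sets 126 (80.8%) were kept, 82 of 104 for the large subunit and 44 of 52 for the small subunit. The kept large subunit probe sets had mean log2 values from 6.10 to 13.62 (median 9.72), and those of the small subunit from 6.14 to 11.18 (median 9.27). Probes differ in affinity, so these values give no ranking of the transcripts. The 30 probe sets under the filter had means from 3.55 to 5.95 and were not tested. Their differences ran from -0.24 to 0.20. In what follows a gene stands for its kept probe set with the highest mean, unless another is named.

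No mitochondrial ribosomal protein gene passed the test between KO and WT testes. Of the 126 probe sets tested 0 passed (limma, Benjamini-Hochberg adjusted p under 0.05 over all 27022 probe sets), against 11 (0.0407%) of all probe sets, 9 of them higher in KO (0.0333%) and 2 lower (0.0074%). The lowest adjusted p among the members was 0.863. At an unadjusted p under 0.05 there were 6 of 126 (4.76%), close to the 5.11% of all probe sets. In 15 of 126 (11.9%) the 3 KO values did not overlap the 3 WT values, against 11.0% of all probe sets. All KO values lay above in 7 (5.56%), against 7.12% of all, and below in 8 (6.35%), against 3.84% of all. These shares are near the background and are no result about the ribosome.

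The differences were small in both subunits. Among the 47 Mrpl genes the KO mean was above the WT mean in 21 and below it in 26. The median was -0.004, with a range from -0.13 to 0.14. Of the 29 Mrps genes 16 were higher and 13 lower, with a median of 0.007 and a range from -0.29 to 0.21. Over all 13897 genes tested the median was 0.012, and 55.9% were higher in KO. These splits depended on the scaling. After quantile normalization 14 Mrpl genes were higher and 33 lower (median -0.026), 11 Mrps genes were higher and 18 lower (median -0.011), and the median of all genes was -0.003. Only Mrps6 and Mrps2 reached a size of 0.2, which 6.18% of all genes did. The middle of the Mrpl differences lay between -0.038 and 0.025 and that of the Mrps differences between -0.016 and 0.049 (lower and upper quartiles), against -0.046 and 0.067 for all genes.

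A p-value above the threshold does not show that levels were equal, so the intervals are given too. The 95% limma interval of the difference, not adjusted for the number of genes, lay within a change of 1.5-fold in either direction for all 76 genes (97.1% of all genes). It lay within 1.2-fold for 60 of the 76, 38 Mrpl and 22 Mrps (57.8% of all genes). Among the 16 others, the widest intervals were those of Mrpl52 (-0.41 to 0.25) and Mrpl3 (-0.21 to 0.37). The intervals rest on 3 mice per group and on a median standard error of 0.07 log2 for these genes, against 0.077 for all genes. These genes also read higher, with a median level of 10.13, against 8.74 for all genes. Whether their level accounts for the larger share within 1.2-fold was not tested. Counted by probe set, 91 of the 126 tested lay within 1.2-fold.

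**Figure D1:**
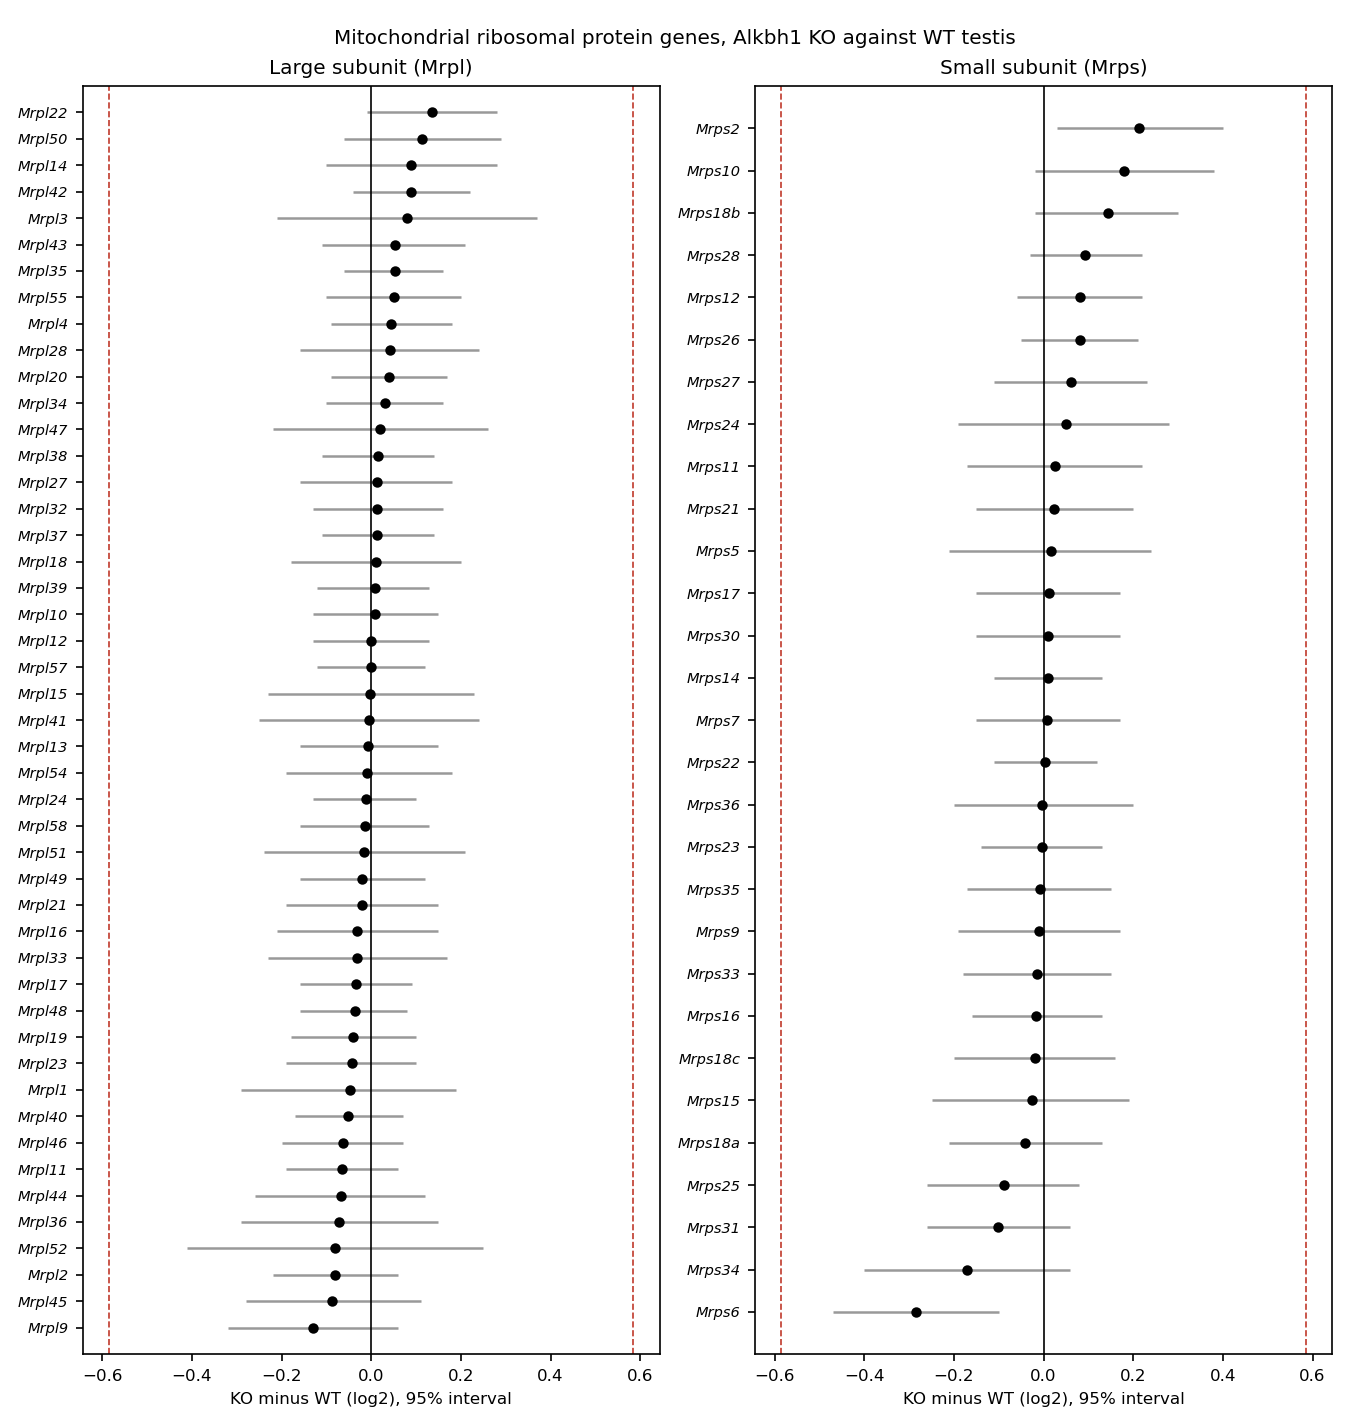
KO minus WT difference in log2 expression (x axis) for each of the 76 genes (y axis), large subunit on the left and small subunit on the right. Points are differences between the means of 3 KO and 3 WT mice, bars are 95% limma intervals, and dashed lines mark 1.5-fold. Every interval lies inside the dashed lines, and those of Mrps6 and Mrps2 leave out 0.

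Mrps6, a small subunit protein with a bacterial counterpart, had the smallest p. Its brighter probe set read 10.29, 10.18 and 10.25 in KO, against 10.36, 10.61 and 10.60 in WT. Its dimmer probe set read 9.19, 9.14 and 9.16 in KO, against 9.29, 9.38 and 9.41 in WT. All 3 KO mice lay below all 3 WT mice at both probe sets. The differences were -0.29 ± 0.08 (0.821-fold, interval -0.47 to -0.10) and -0.19 ± 0.06 (0.874-fold), and neither passed over all probe sets (limma adjusted p = 0.863 for both). Mrps6 was the only one of the 76 genes with more than 1 tested probe set at an unadjusted p under 0.05. The RefSeq interval of Mrps6 also holds Slc5a3, which encodes the sodium/myo-inositol cotransporter. Its tested probe sets differed by -0.13 ± 0.11 and -0.15 ± 0.08, with KO and WT overlapping at both, and whether any probe of one gene reads transcripts of the other was not tested. The sequence around the start of Mrps6 is shown because it is the gene with the smallest p. It runs from 250 bases before to 50 after the start (RefSeq, GRCm38.p6, chr16:92058086-92058385, plus strand), and none of the NRF1, ETS or YY1 letters described further on were found in it, hence no capitals.
Mrps6: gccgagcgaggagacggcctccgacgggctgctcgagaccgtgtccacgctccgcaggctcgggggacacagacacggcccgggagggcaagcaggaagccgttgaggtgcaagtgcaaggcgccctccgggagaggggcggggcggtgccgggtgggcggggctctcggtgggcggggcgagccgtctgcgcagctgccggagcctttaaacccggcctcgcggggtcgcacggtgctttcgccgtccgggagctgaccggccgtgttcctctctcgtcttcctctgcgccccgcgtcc

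Mrps2, a protein of the small subunit with a bacterial counterpart, was the gene with the smallest p among those higher in KO. It read 9.16, 8.97 and 9.20 in KO, against 8.90, 8.83 and 8.96 in WT at its brighter probe set, a difference of 0.21 ± 0.08 (1.16-fold, interval 0.03 to 0.40, limma adjusted p = 0.918). All KO values lay above all WT values, KO replicate 2 only just. Its dimmer probe set read 8.13, 8.04 and 8.21 in KO, against 8.25, 7.88 and 8.04 in WT, a difference of 0.07 ± 0.10 with overlap.

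Of the 7 genes next in order of p, Mrpl22, Mrps10, Mrps18b, Mrps28 and Mrpl42 were higher in KO, and Mrps34 and Mrpl9 were lower. Mrpl22, which lines the exit tunnel, read 11.09, 11.20 and 11.01 in KO, against 10.93, 10.98 and 10.99 in WT, without overlap (0.14 ± 0.06, limma adjusted p = 0.984). Mrps10, of the head of the small subunit, read 9.68, 9.92 and 9.99 in KO, against 9.69, 9.63 and 9.74 in WT. KO replicate 1 lay among the WT values (difference 0.18 ± 0.09). The dimmer tested probe set of Mrps10 differed by 0.02 ± 0.11, with overlap. Mrps34, a small subunit protein found only in mitochondria, read 10.24, 9.92 and 10.26 in KO, against 10.23, 10.37 and 10.33 in WT. KO replicate 2 was the lowest, and the difference of -0.17 ± 0.10 was -0.06 without it. A probe set that names Mrps34 together with Nme3, not counted as a member, differed by 0.076 ± 0.125, with overlap. Mrpl9 read 9.34, 9.10 and 9.35 in KO, against 9.35, 9.39 and 9.43 in WT, with KO replicate 2 lowest and the groups meeting at 9.35 (-0.13 ± 0.08, and -0.05 without that replicate). Mrps18b, Mrps28 and Mrpl42 are described with their subunits. None of the 7 passed (limma adjusted p from 0.984 to 0.993).

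**Figure D2:**
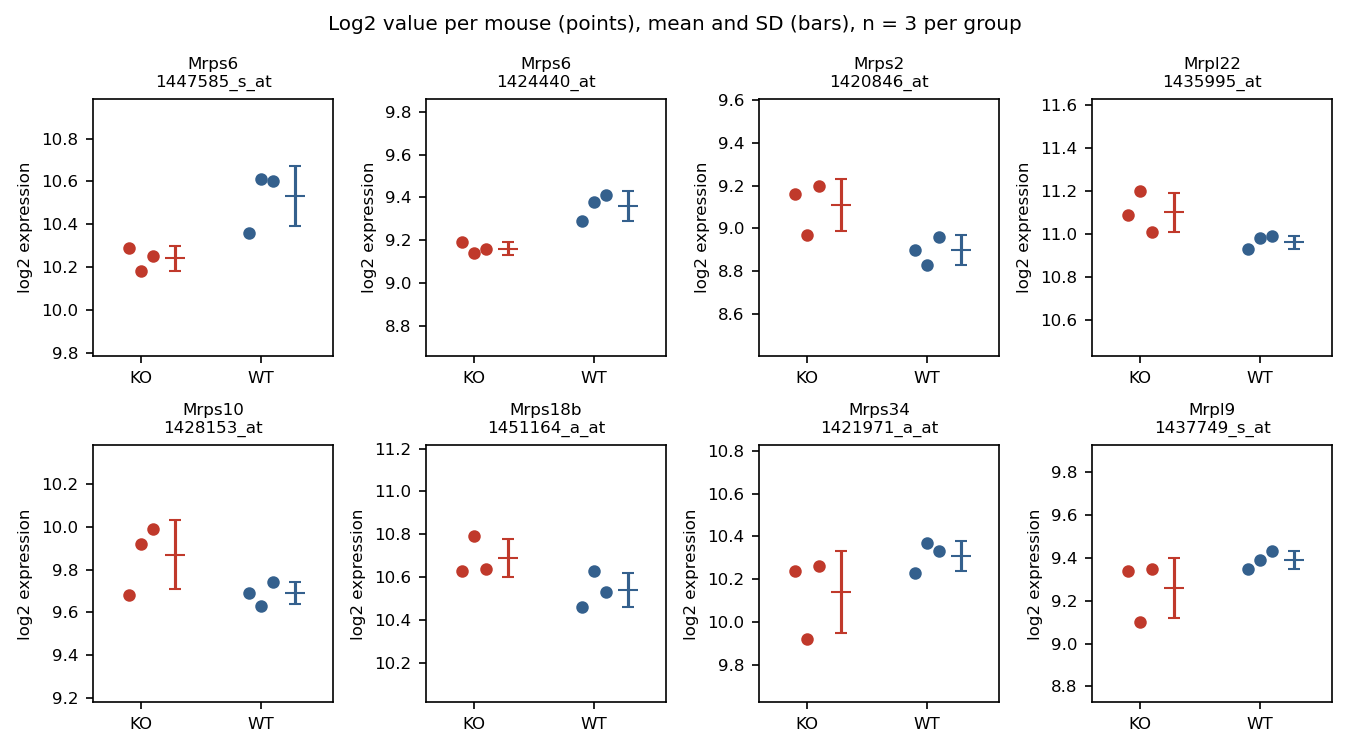
Log2 expression (y axis) in each KO and WT mouse for 8 probe sets of 7 genes, each panel spanning the same number of log2 units. Points are single mice and bars are mean ± SD (n = 3 per group). At both Mrps6 probe sets all KO points lie below all WT points, at Mrps2 and Mrpl22 all KO points lie above, and at Mrps10, Mrps18b and Mrps34 the groups overlap.

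In the large subunit, the genes were followed by where their proteins sit. The stalks guide tRNAs and translation factors. Mrpl12 and Mrpl10 of the factor-binding stalk differed by 0.00 and 0.01, Mrpl11 at its base by -0.07 ± 0.05 and Mrpl1 of the other stalk by -0.05. Near the peptidyl transferase centre, where amino acids are joined, Mrpl2 stood at -0.08 ± 0.06, Mrpl3 at 0.08, Mrpl16 at -0.03 and Mrpl27 at 0.01. Mrpl3 read 10.08, 9.59 and 9.67 in KO, against 9.61, 9.80 and 9.69 in WT, and without KO replicate 1 its difference was -0.07. Of 8 genes assigned here to the exit tunnel, which leave out Mrpl4 (0.04), 3 were higher and 5 lower in KO (median -0.023). Mrpl22 was the highest of them, Mrpl24, Mrpl39 and Mrpl47 lay between -0.01 and 0.02, and Mrpl45, whose protein faces the inner membrane, and Mrpl44 differed by -0.09 and -0.07. Of 5 genes assigned here to the central protuberance, which contacts the small subunit, 2 were higher and 3 lower (median -0.036). This assignment may leave out other proteins of the protuberance. Mrpl46 stood at -0.06 ± 0.06 and Mrpl40 at -0.05, while Mrpl38 and Mrpl18 were at 0.02 and 0.01. No member of these groups passed over all probe sets.

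By origin, 15 of the 29 large subunit genes with bacterial counterparts were higher in KO (median 0.000) and 6 of the 18 found only in mitochondria (median -0.012). Among those found only in mitochondria, Mrpl42 read 10.40, 10.31 and 10.35 in KO, against 10.28, 10.30 and 10.22 in WT (0.09 ± 0.06), and Mrpl50 differed by 0.11 ± 0.08. The KO values of Mrpl42 lay just above those of WT, while those of Mrpl50 overlapped. At the dimmer tested probe set of Mrpl50 the difference was -0.02 ± 0.08.

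In the small subunit, Mrps12, the protein closest to the decoding site, differed by 0.08 with overlap. Of 7 genes assigned here to the head, which leave out Mrps24 (0.05), 3 were higher and 4 lower (median -0.008). Mrps10 was the highest, Mrps31 the lowest at -0.10 ± 0.07, and Mrps14 stood at 0.01. Of the 13 genes assigned here to the body 8 were higher and 5 lower (median 0.011). Mrps12, Mrps18b and Mrps18c were grouped apart and are not among the 13. Mrps28 (0.09 ± 0.05) and Mrps26 (0.08 ± 0.06) stood at the upper end, and Mrps6, Mrps34 and Mrps25 (-0.09 ± 0.07) at the lower end. In Mrps28 and Mrps26 all KO values lay above all WT values, by little between the nearest mice. Mrps22 read 11.14, 11.21 and 11.19 in KO, against 11.15, 11.20 and 11.18 in WT, within a narrow range in all 6 mice. Of the 18 small subunit genes with bacterial counterparts 12 were higher in KO (median 0.014), and of the 11 found only in mitochondria 4 were (median -0.003).

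Mammalian mitochondria have 3 relatives of the bacterial protein S18, which do not occupy the same place. Mrps18b read 10.63, 10.79 and 10.64 in KO, against 10.46, 10.63 and 10.53 in WT. KO replicate 1 and WT replicate 2 met at 10.63 (difference 0.14 ± 0.07, limma adjusted p = 0.993). Mrps18a differed by -0.04 and Mrps18c by -0.02. The symbols do not always name the subunit in which a protein is found. The proteins of Mrps18a and Mrps30 sit in the large subunit, and Mrps36 has been found with the 2-oxoglutarate dehydrogenase complex instead of the ribosome. Mrps30 stood at 0.01 and Mrps36 at 0.00. With these genes placed by structure, the medians were -0.004 over 49 large subunit genes and 0.008 over 26 small subunit genes.

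The KO minus WT values of a gene's tested probe sets differed by amounts that were not small beside the differences between genes. The quartiles between genes were -0.038 and 0.025 for Mrpl, and -0.016 and 0.049 for Mrps. Of the 30 genes with more than 1 tested probe set 12 had both signs, and the median gap between the highest and the lowest difference of a gene was 0.085. The gap was largest for Mrps5, whose 5 probe sets ran from -0.12 to 0.06, followed by Mrpl49 and Mrpl3. The next genes are described for a probe set at an unadjusted p under 0.05, chosen after the values were seen. At Mrpl49 the dimmer probe set read 8.12, 8.0 and 8.12 in KO, against 8.35, 8.19 and 8.24 in WT (-0.18 ± 0.07, limma adjusted p = 0.932), while the brighter one stood at -0.02. At Mrpl3 the dimmest tested probe set read 6.49, 6.44 and 6.48 in KO, against 6.17, 6.35 and 6.22 in WT (0.22 ± 0.08, limma adjusted p = 0.866), and the brighter ones stood at 0.08 and 0.06 with overlap. At Mrps23 the dimmer tested probe set read 9.04, 9.03 and 9.02 in KO, against 9.24, 9.14 and 9.16 in WT (-0.15 ± 0.06, limma adjusted p = 0.918), and the brighter one stood at 0.00. Another Mrps23 probe set, under the level filter and not tested, read 5.06, 4.79 and 5.06 in KO, against 5.16, 5.34 and 5.13 in WT (-0.24).

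WT mice 1 and 2 differed more in the Mrpl genes than in the Mrps genes. Averaged over the 47 Mrpl genes, the deviation from each gene's mean over all arrays was 0.013, -0.012 and -0.005 in KO replicates 1 to 3, against -0.062, 0.056 and 0.011 in WT replicates 1 to 3. Over the 29 Mrps genes it was -0.005, -0.007 and 0.023 in KO, against -0.033, 0.017 and 0.005 in WT. The 3 KO mice lay between WT replicates 1 and 2 for the large subunit. WT replicate 1 was below WT replicate 2 in 35 of 47 Mrpl genes (74.5%) and 17 of 29 Mrps genes (58.6%), against 55.6% of all genes. Over all genes the mean deviation was -0.031 in WT replicate 1 and 0.003 in WT replicate 2. Other lists varied between these 2 mice as well. The values were -0.117 and 0.034 for spermatocyte genes, 0.118 and -0.084 for spermatogonia, and 0.039 and 0.058 for Sertoli genes. Mrpl52 had one of the widest gaps, at 10.50, 10.53 and 10.72 in KO, against 10.37, 10.97 and 10.65 in WT. The RNAs spiked in before labelling moved with these arrays, with mean log2 values of 7.74, 7.59 and 8.10 in KO, against 6.69, 9.41 and 7.96 in WT. The probe set for the 5' part of 18S rRNA read 7.02, 7.65 and 8.67 in KO, against 6.63, 12.16 and 8.35 in WT. Their part in the spread of the ribosomal genes was not tested. Without WT replicate 1 the median Mrpl difference was -0.036, without WT replicate 2 it was 0.025, and without both, which leaves 1 WT array, it was -0.016. The Mrps medians were 0.016, 0.026 and 0.013. No member passed in any of these fits.

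**Figure D3:**
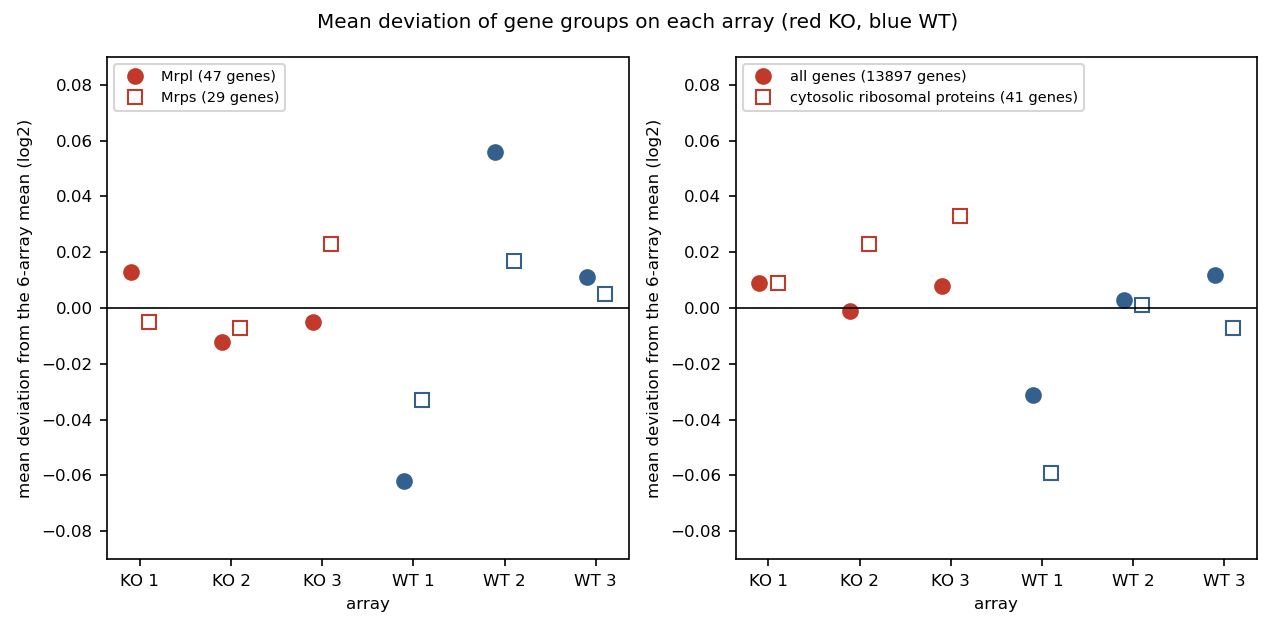
Mean deviation from the mean of the 6 arrays in log2 units (y axis) on each array (x axis), KO in red and WT in blue. The left panel holds Mrpl (filled circles) and Mrps genes (open squares), the right panel all genes tested (filled circles) and cytosolic ribosomal proteins (open squares). For Mrpl, WT replicates 1 and 2 lie at -0.062 and 0.056, outside the 3 KO arrays.

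No gene of the related lists passed either. Of 4 measured ribosomal proteins under other symbols 0 passed. Gadd45gip1, a large subunit protein also known as CRIF1, differed by -0.17 ± 0.07 with all KO values below all WT values (limma adjusted p = 0.932). Dap3, a GTP-binding protein of the small subunit, stood at 0.02, Chchd1 at -0.02 and Ptcd3, which binds messenger RNA at the small subunit, at 0.00. Of 22 measured genes for assembly of the mitochondrial ribosome 9 were higher and 13 lower (median -0.005), and 0 passed, the smallest p being those of Ngrn (0.13 ± 0.06) and of the GTPase gene Mtg2 (-0.16 ± 0.09). Of 12 measured genes that serve translation in mitochondria (initiation, elongation, release and recycling factors, and Lrpprc, Slirp, Oxa1l and Mtfmt, which act on messenger RNA, membrane insertion and tRNA formylation) 6 were higher and 6 lower (median 0.000), and 0 passed. The initiation factor gene Mtif3 differed by -0.17 ± 0.07 (limma adjusted p = 0.932) and the recycling factor gene Mrrf by 0.09 ± 0.06. Of 41 cytosolic ribosomal protein genes 32 were higher and 9 lower in KO (median 0.031), and 0 passed, Rps3a1 (0.11 ± 0.04, limma adjusted p = 0.936) and Rplp0 (0.08 ± 0.04) having the smallest p. After quantile normalization 16 were higher and 25 lower (median -0.008), with Rps3a1 at 0.07 and Rplp0 at 0.02. Before it, their mean deviation was lowest in WT replicate 1, at -0.059, and the difference between this list and the mitochondrial one was not tested.

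The 76 genes lie on 17 chromosomes, with 11 on chromosome 11, and none lies on chromosome 12, which carries Alkbh1. Their promoters were compared with those of all protein-coding genes in RefSeq (GRCm38.p6), from 250 bases before to 50 after the start, where 67 of the 76 had an entry. The letters searched, on both strands, were the NRF1 consensus, with 1 free base in its middle, for a regulator of nuclear genes for mitochondria, CCGGAAGT for ETS factors such as GABP, AAGATGGC for YY1, and TATAAA for the TATA box. NRF1, ETS and YY1 letters were each found in 12 of the 67 genes (17.9%), against 7.17%, 5.69% and 3.57% of 17491 protein-coding genes, and TATAAA in 5 (7.46%), against 14.8%. A start of another gene on the opposite strand lay within 1000 bases upstream in 25 of the 67 (37.3%), against 13.1% of protein-coding genes. The median share of G and C was 58.3%, against 56.3%. These are counts of letters and distances and do not show binding, and they were not tested.

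Of the following promoters, that of Mrpl45 is shown for its 3 NRF1 matches, the most of any member (chr11:97315466-97315765, plus strand). That of Mrps26 is shown because it holds ETS and NRF1 letters together (chr2:130563507-130563806, plus strand). That of Mrps11 is shown because Mrpl46 starts from the other strand within it (chr7:78782881-78783180, plus strand), so that genes of both subunits share 1 promoter region. Capitals mark the NRF1, ETS or YY1 letters on either strand. The pair of NRF1 matches in Mrps26 overlap.
Mrpl45: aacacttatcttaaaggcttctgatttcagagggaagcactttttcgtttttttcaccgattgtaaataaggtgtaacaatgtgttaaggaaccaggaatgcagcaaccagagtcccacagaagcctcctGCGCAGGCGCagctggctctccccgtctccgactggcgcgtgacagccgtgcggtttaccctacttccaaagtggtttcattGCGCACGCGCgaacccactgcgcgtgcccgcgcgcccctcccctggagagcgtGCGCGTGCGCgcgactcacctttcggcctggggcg
Mrps26: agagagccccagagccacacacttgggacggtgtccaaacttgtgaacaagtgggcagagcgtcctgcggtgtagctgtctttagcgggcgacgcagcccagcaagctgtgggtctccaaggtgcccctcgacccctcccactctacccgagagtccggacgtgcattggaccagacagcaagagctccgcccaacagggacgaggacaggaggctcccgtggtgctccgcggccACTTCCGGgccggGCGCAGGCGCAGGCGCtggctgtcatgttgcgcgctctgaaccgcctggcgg
Mrps11: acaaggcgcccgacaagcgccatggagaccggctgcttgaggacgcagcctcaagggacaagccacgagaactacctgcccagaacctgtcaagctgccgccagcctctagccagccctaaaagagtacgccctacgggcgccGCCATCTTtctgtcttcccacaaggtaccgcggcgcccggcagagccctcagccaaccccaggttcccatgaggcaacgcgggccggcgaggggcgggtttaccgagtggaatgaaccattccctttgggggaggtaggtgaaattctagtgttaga

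None of these genes passed in KO against WT. Mrpl45 differed by -0.09 and Mrps26 by 0.08. The divergent pair stood at 0.03 for Mrps11, with 10.03, 10.03 and 10.06 in KO, against 9.82, 10.12 and 10.11 in WT, and at -0.06 for Mrpl46, with 9.61, 9.54 and 9.58 in KO, against 9.60, 9.70 and 9.62 in WT. Both were highest in WT replicate 2, and at both KO and WT overlapped.

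**Figure D4:**
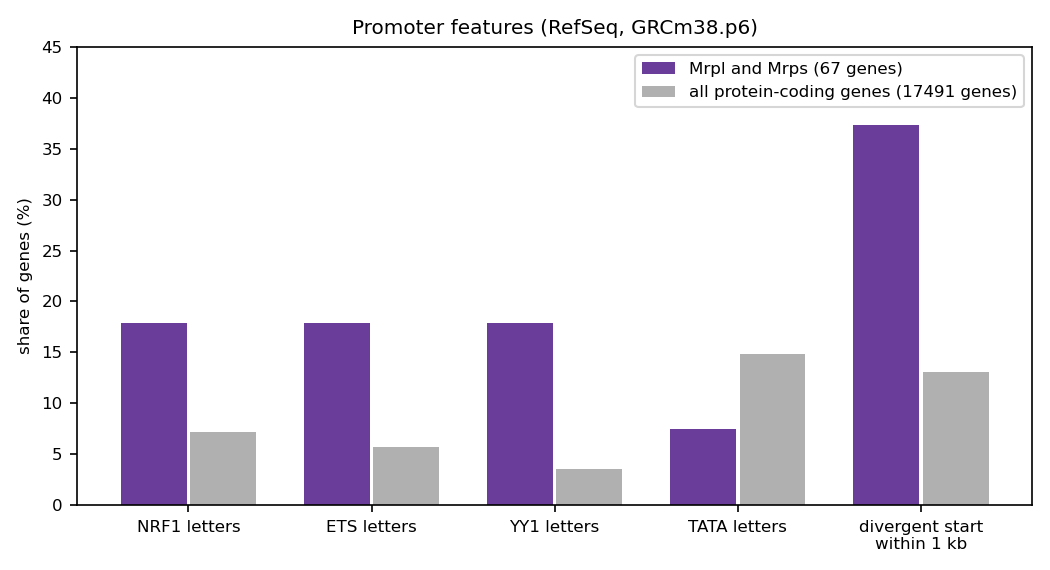
Share of genes in percent (y axis) whose RefSeq promoter holds each set of letters or has a divergent start within 1 kb (x axis). Bars on the left of each pair are Mrpl and Mrps genes (67 genes) and bars on the right all protein-coding genes. The members' bar is the taller one for NRF1, ETS, YY1 and divergent starts and the shorter one for the TATA letters.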

How the data were processed

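Total RNA of whole testes (RNA integrity 9.8 to 10) was labelled in 1 cycle, per the labels' protocols. The authors deposited normalized log2 values of 6 arrays, and the submitters' processing notes name GCOS 1.4. The sources used here state no background correction, probe summary or normalization. Values from 2.61 to 15.0, with array medians of 6.62 to 6.64, were taken as log2. Where arrays are equalised in this way, a shift of all transcripts would not be seen. Precision is limited by the number of arrays.

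Samples were grouped by their titles. After 64 control probe sets were left out, the upper 60% by mean were kept (27022, lowest mean 6.02) and KO was compared with WT by limma 3.58.1 (R 4.3.3; lmFit, eBayes with an intensity trend, two-sided) with Benjamini-Hochberg adjustment over all of them. The pipeline was tested on simulated data. Gene names came from the platform annotation, updated by gene ID through RefSeq (99.4% of 34945 probe sets naming 1 gene matched, as did all 156 members). Intervals are limma's at 95%.

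Named were the 8 genes with the smallest p in each direction, genes by place in the ribosome, ribosomal proteins under other symbols, and list genes with the smallest p. The members, lists and the alternative without WT replicates 1 and 2 were chosen with earlier results of these data known. Cytosolic ribosomal proteins leave out paralogs with symbols such as Rpl10l, a choice made with the lists in view, as were the interval counts and the promoter search. Same-numbered KO and WT arrays had residual correlations of 0.223, -0.024 and 0.0964, so that the numbers were not taken to pair the mice. Figures were drawn with matplotlib 3.10.9.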

Additional observations from a re-analysis of the deposited data

How the results depend on the processing

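The mitochondrial ribosomal protein genes had 0 called probe sets under all 15 alternative fits, with the lowest adjusted p among them, 0.0757 for Mrps6, under array weights, where 14 members (11.1%) had an unadjusted p under 0.05, against 12.6% of all probe sets. The adjusted p of Mrps6 ran from 0.0757 to 1 and its difference from -0.37 to -0.24. The 8 genes with the smallest p in each direction kept their direction under every alternative fit that gave a value. They were chosen by p in the main fit, and the alternatives reuse the same arrays, so this is no independent support for them. Of the 76 genes 46 changed sign under at least 1 alternative fit, so that the sign of a small difference carries no weight. The Mrpl median ran from -0.036 to 0.025 and the Mrps median from -0.011 to 0.026, including the alternatives for the choice of probe set and for subunits by structure, and each moved from its reported value by less than 1 SD between mice (0.043 and 0.022). Over all probe sets the count of 11 was 7 with the upper 40% by level, 46 with array weights and 2 without WT replicates 1 and 2 together, and from 2 to 12 when single replicates were left out (6 without KO replicate 1, 2 without KO replicate 3, 4 without WT replicate 3). With the replicate block it was 9, with 0 members called, and the block changed no call of Alkbh1 or of a member. Alkbh1, which the fit on the upper 40% did not hold, lost its call only without WT replicates 1 and 2 together, which leaves 1 WT array assumed to vary like the KO arrays (-3.30, adjusted p = 0.0631). The causes of these changes were not tested, beyond the smaller numbers of arrays or probe sets in the fits concerned.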
